A study of Mus musculus with 6 samples.

Results

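Transcripts of voltage-gated calcium channel subunits were followed across the cerebella of Galnt17 knockout mice and B6C3 wild types. The set holds 10 listed genes of the 55487 gene identifiers counted: 8 alpha-1 subunit genes of neurons (Cacna1a, Cacna1b, Cacna1c, Cacna1d, Cacna1e, Cacna1g, Cacna1h and Cacna1i), the alpha-2-delta subunit gene Cacna2d2 and the beta subunit gene Cacnb4. They were chosen by name as neuronal calcium channel genes, the last pair because their loss causes ataxia in mice. All 10 were found and all 10 passed the filter on low counts, among 18237 genes tested. The KO group was 3 male mice homozygous for the allele Galnt17tm1.1(KOMP)Vlcg on a mixed background made by breeding C57BL/6J carriers to B6C3 F1 hybrids of C57BL/6J and C3H/He, since homozygotes on C57BL/6 did not survive to birth, per the labels. The other group was 3 male B6C3 wild types (WT), and all mice were 14 days old. The labels name no shared litter, no tissue-specific driver and no batch, and each library came from the cerebellum of 1 animal. Which bases the allele lacks is not stated in the labels.

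A voltage-gated calcium channel is built around an alpha-1 subunit, which forms the pore and senses voltage. A cytoplasmic beta subunit and an extracellular alpha-2-delta subunit bring the high-voltage-activated kinds to the membrane and tune their gating, whereas the low-voltage-activated T-type channels can work without them. Purkinje cells, the output neurons of the cerebellar cortex, carry most of their calcium current through P/Q-type channels, and granule cell axons release glutamate through P/Q-type and N-type channels. Mouse mutants of Cacna1a (tottering), Cacnb4 (lethargic) and Cacna2d2 (ducky) are ataxic.

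Galnt17 (also Wbscr17), the targeted glycosyltransferase gene, had 72, 80 and 63 counts in KO libraries, against 1119, 729 and 963 in WT libraries, so the groups were as labelled. Reads counted in genes totalled 17111611 to 29840046 per library, and the biological coefficient of variation was 8.52%. WT libraries differed more from each other than KO libraries did, with a chi-square per degree of freedom of 2.56 to 4.77 between pairs of KO libraries and 9.71 to 17.1 between pairs of WT libraries. Unmapped reads made up 13.8% to 17.2% in KO libraries, against 6.52% to 10.03% in WT libraries, with no overlap. Ambiguous reads (3.95% to 4.07% in KO and 4.35% to 4.44% in WT) and multimapping reads (3.72% to 3.90% in KO and 4.09% to 4.29% in WT) did not overlap either, and their part in the results was not tested. WT replicate 1 stood apart: the Spearman correlation across genes between its deviation from the mean and GC content was -0.22, against -0.06 to 0.13 in the other 5 libraries. Defining markers of the tissue were present, with 16 of 16 Purkinje cell and 12 of 12 mature granule cell markers passing the filter.

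In KO against WT cerebella, 0 of the 10 genes passed edgeR's quasi-likelihood test at an adjusted p below 0.05, in a comparison that called 1.66% of all tested genes, 0.784% higher and 0.872% lower. DESeq2 and limma-voom also called 0. Before adjustment, 4 of them had p under 0.05, all higher in KO, where 17.6% of all tested genes had such a p (8.57% higher and 8.99% lower). Those 4 were Cacna1a, Cacna1d, Cacna1e and Cacnb4. The log2 fold change was above 0 for 8 of the 10, as it was for 48.5% of all tested genes, and the median was 0.10, beside -0.01 over all tested genes. In bulk tissue, fewer cells of a type and less RNA per cell cannot be told apart.

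Upstream sequences are shown for the members with an unadjusted p under 0.05 that have a RefSeq window (GRCm38.p6), and for Cacna2d2 as one near a fold of 1, so that their base composition can be compared. Each is the 100 bases just before an annotated transcript start, 5′ to 3′ on the gene's strand, with matches to GGGCGG or its reverse complement in capitals. Of several annotated starts, Cacna1d is shown at the downstream one of 2 and Cacnb4 at the most upstream of 3. The Cacna1e stretch precedes a start at 154725920, inside the annotated gene, whose 5′ end is at 154884501. It is therefore not the sequence before the gene's most upstream start. Cacna1d is shown at chr14:30353487-30353586 (minus strand), Cacna1e at chr1:154725921-154726020 (minus strand), Cacnb4 at chr2:52676144-52676243 (minus strand) and Cacna2d2 at chr9:107399780-107399879 (plus strand).
Cacna1d: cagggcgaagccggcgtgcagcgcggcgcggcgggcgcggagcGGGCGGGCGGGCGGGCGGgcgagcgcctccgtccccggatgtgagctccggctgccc
Cacna1e: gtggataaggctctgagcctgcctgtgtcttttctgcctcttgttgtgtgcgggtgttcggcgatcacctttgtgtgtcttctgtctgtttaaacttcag
Cacnb4: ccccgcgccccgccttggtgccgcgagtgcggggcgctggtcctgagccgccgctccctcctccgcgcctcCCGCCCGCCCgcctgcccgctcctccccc
Cacna2d2: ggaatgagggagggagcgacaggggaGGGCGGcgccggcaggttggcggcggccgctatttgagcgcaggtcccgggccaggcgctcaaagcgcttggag

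RefSeq windows were found for 7 of the 10 genes, 12 windows in all. Over the 250 bases before each start, 5 of the 12 windows held GGGCGG on either strand (matches counted without overlap), beside 32.7% of all 32851 windows, and 1, the upstream window of Cacna1d, held TATAAA or its reverse complement, beside 12.4%. The members' windows had a median GC content of 66.8%, against 52.4% over all windows. Cacna1d, Cacnb4 and Cacna2d2 hold the motif in the stretch shown and Cacna1e does not. At their other annotated starts, which are not shown, the windows of Cacna1d and Cacnb4 held 0 matches over 250 bases. For these 2 genes the match therefore depends on the start chosen. A match is a description of letters and not of a bound factor.

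**Figure D1:**
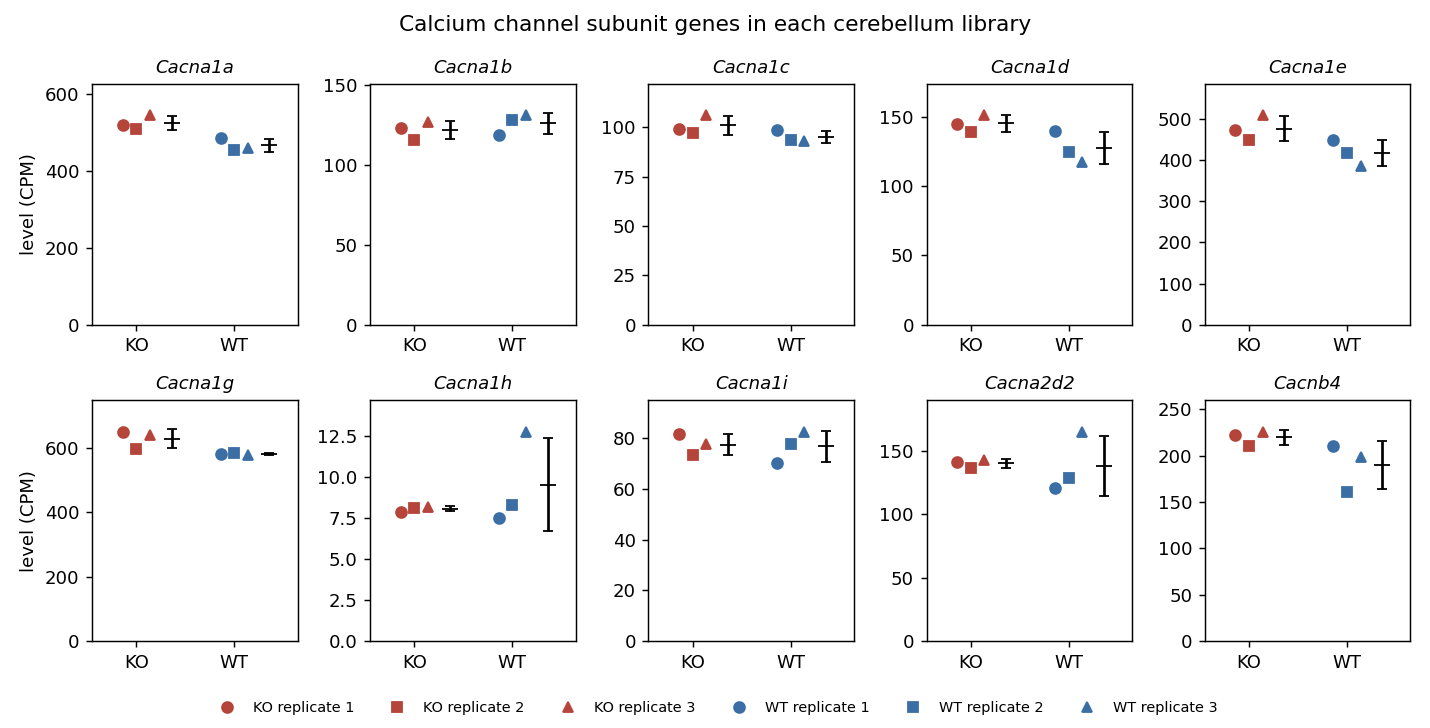
Level in CPM (counts scaled to library size) of each of the 10 genes, 1 point per library, KO left of WT, with the group mean and SD (n = 3 each) as a black bar, on axes that start at 0. KO points lay above all WT points for Cacna1a, Cacna1g and Cacnb4, and WT replicate 3 stood high for Cacna1h and Cacna2d2.

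Cacna1a encodes the pore of the P/Q-type channel (ENSMUSG00000034656, chromosome 8, 84388440 to 84640246, plus strand, GRCm38). Its level was 519.9, 509 and 545 CPM in KO libraries, against 486, 455 and 459 CPM in WT libraries. Every KO library was above every WT library, which was so for 11.5% of all tested genes. The fold was 1.12 (95% interval 1.03 to 1.23), with a log2 fold change of 0.17 (SE 0.06), and it did not pass (adjusted p = 0.176). Of the 251.8 kb gene, 435 exon bases are shared with the antisense gene Gm16183, which was itself at 3.40 to 7.004 CPM. Without strand, reads on exon bases of both genes are ambiguous, and ambiguous reads were left out of the counts.

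Cacna1b encodes the N-type pore, which works beside the P/Q-type channel in axon terminals (ENSMUSG00000004113, chromosome 2, 24603887 to 24763152, minus strand). It had 123, 116 and 127 CPM in KO libraries, against 119, 128 and 131 CPM in WT libraries. The groups overlapped, and the 95% interval of the fold ran 0.885 to 1.06 (adjusted p = 0.727). Cacna1e encodes the R-type pore (ENSMUSG00000004110, chromosome 1, 154390731 to 154884501, minus strand). It was at 472, 448 and 509 CPM in KO libraries, against 449, 418 and 387 CPM in WT libraries. KO replicate 2 lay just below WT replicate 1, while WT replicates 2 and 3 were below all KO libraries. Its fold of 1.14 (1.02 to 1.27) had an adjusted p of 0.219.

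The L-type pores are encoded by Cacna1c and Cacna1d, and couple calcium entry in cell bodies and dendrites to signalling and to pacemaking. Cacna1d (ENSMUSG00000015968, chromosome 14, 30039939 to 30491455, minus strand) was at 145, 139 and 151 CPM in KO libraries, against 139.7, 125 and 117 CPM in WT libraries. Only KO replicate 2 and WT replicate 1 overlapped among these 6 values. The fold was 1.14 (1.02 to 1.27) with an adjusted p of 0.201, and 589 of its exon bases are shared with Chdh on the opposite strand, a gene at 1.98 to 2.93 CPM. Cacna1c (ENSMUSG00000051331, chromosome 6, 118587240 to 119196418, minus strand) was at 99.3, 97.4 and 106 CPM in KO libraries, against 98.7, 93.4 and 93.4 CPM in WT libraries. These overlapped (fold 1.06, 0.974 to 1.1545, adjusted p = 0.451).

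T-type channels open near the resting potential and support burst firing. Cacna1g, their main form in Purkinje cells (ENSMUSG00000020866, chromosome 11, 94408391 to 94474198, minus strand), was at 650.0, 596 and 639 CPM in KO libraries, against 580.2, 584 and 577 CPM in WT libraries. All KO libraries were above all WT libraries, and the WT libraries lay close together (SD 3.61 CPM, n = 3), but the fold of 1.08 (0.990 to 1.18) did not pass (adjusted p = 0.338). Cacna1i (ENSMUSG00000022416, chromosome 15, 80287238 to 80398279, plus strand) was at 81.5, 73.2 and 77.6 CPM in KO libraries, against 70.2, 77.5 and 82.5 CPM in WT libraries, which overlapped fully (fold 1.01, 0.908 to 1.12, adjusted p = 0.936). Cacna1h (ENSMUSG00000024112, chromosome 17, 25374285 to 25433783, minus strand), the least abundant member, had 236, 189 and 165 counts in KO libraries, against 182, 142 and 263 in WT libraries. That was 7.91, 8.12 and 8.19 CPM in KO, against 7.54, 8.33 and 12.8 CPM in WT.

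WT replicate 3 alone was high for Cacna1h, and the fold of 0.846 had the widest 95% interval of the set (0.639 to 1.12, adjusted p = 0.519). In the same library the 14 markers of cerebellar nuclei, brainstem and midbrain summed to 152 CPM. That sum was 74.1 to 83.7 CPM in KO libraries, against 80.1 and 95.1 CPM in the other WT libraries. Of those 14 markers 6 passed the filter, and 0 were called. Their part in the Cacna1h value was not tested.

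Cacnb4 encodes a beta subunit of high-voltage-activated channels (ENSMUSG00000017412, chromosome 2, 52428320 to 52676831, minus strand). Its level was 222, 211 and 226 CPM in KO libraries, against 211, 161 and 198 CPM in WT libraries. KO replicate 2 lay only just above WT replicate 1, and WT replicate 2 was far below the rest. The fold of 1.16 (1.01 to 1.32) was the highest of the 10, with an adjusted p of 0.258. When WT replicate 2 was left out the log2 fold change became 0.11, where all 6 libraries gave 0.21. The opposite-strand transcript A430018G15Rik shares 1433 exon bases with Cacnb4 but was at 0.0486 to 0.348 CPM.

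Cacna2d2 encodes the alpha-2-delta subunit of Purkinje cells (ENSMUSG00000010066, chromosome 9, 107399612 to 107529343, plus strand). It was at 141, 137 and 143 CPM in KO libraries, against 121, 128 and 165 CPM in WT libraries. WT values lay on both sides of the narrow KO range, and the fold was 1.02 (0.872 to 1.18, adjusted p = 0.931). The high value was again WT replicate 3, and without it the log2 fold change was 0.17 (adjusted p = 0.148).

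**Figure D2:**
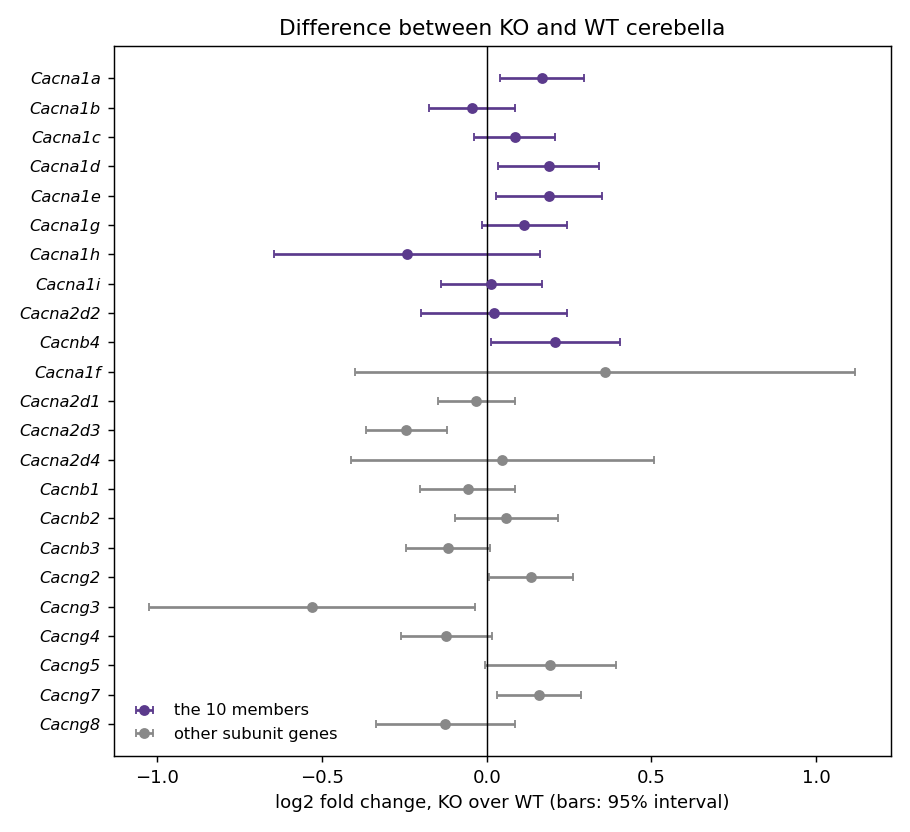
Log2 fold change of KO over WT with its 95% interval, for the 10 members and, in grey, the other subunit genes that passed the filter, apart from Cacng6. Before adjustment the intervals of Cacna1a, Cacna1d, Cacna1e and Cacnb4 lie above 0 among the members, and among the others those of Cacng2 and Cacng7 lie above 0 and those of Cacna2d3 and Cacng3 below it.

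For Cacna1a, Cacna1d, Cacna1e and Cacnb4 alike, the WT library nearest to KO was WT replicate 1. Without it, Cacna1a (log2 fold change 0.20, adjusted p = 0.0461), Cacna1d (0.26, adjusted p = 0.0160), Cacna1e (0.24, adjusted p = 0.0459) and Cacnb4 (0.29, adjusted p = 0.0438) were called higher in edgeR's quasi-likelihood test. That made 4 of 10 members, where 5.22% of all genes tested in those 5 libraries were called higher. Without any other single library, 0 of the 10 passed. With a filter that kept all genes with a count, 1 passed, Cacnb4 (adjusted p = 0.0343), where 2.40% of genes were called higher.

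**Figure D3:**
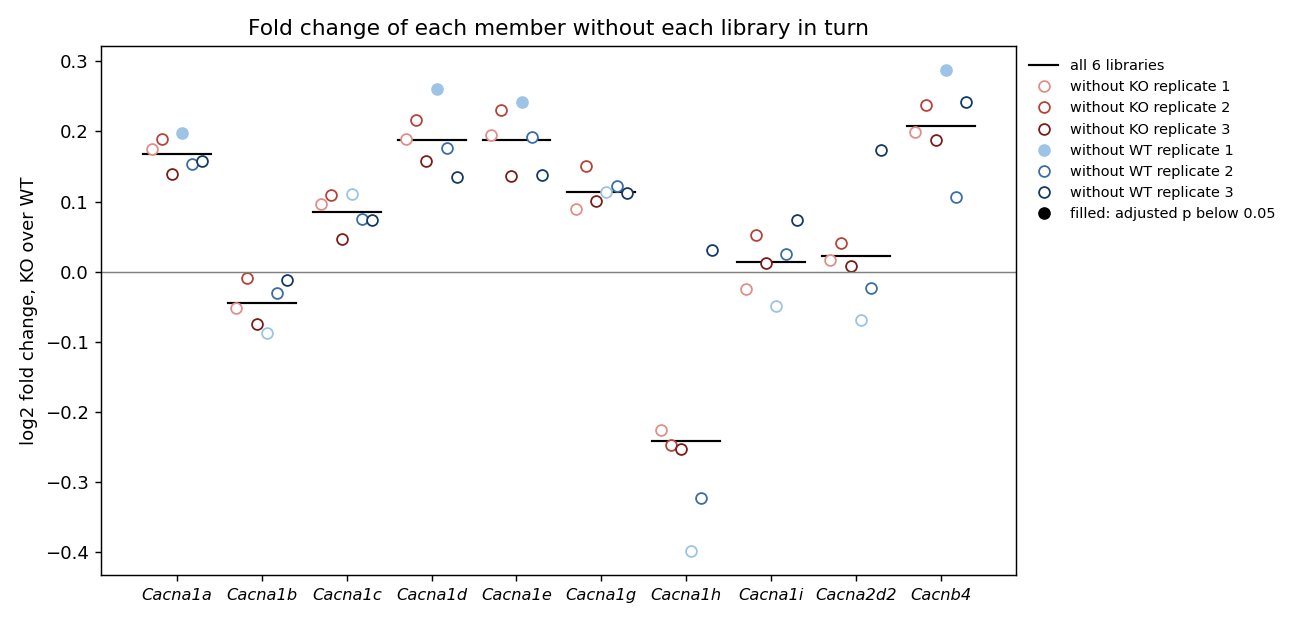
Log2 fold change of KO over WT for each of the 10 genes with 1 library left out in turn (circles, filled where the adjusted p was below 0.05), beside the value with all 6 libraries (line). Filled circles appear for 4 genes, all without WT replicate 1, and Cacna1h, Cacna1i and Cacna2d2 lie on both sides of 0.

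Levels between genes were compared as CPM per kilobase of merged exons. Cacna1g led with 62.0 ± 2.82 in KO and 57.3 ± 0.356 in WT (SD, n = 3 each), followed by Cacna1a with 45.9 ± 1.62 in KO and 40.9 ± 1.49 in WT. Cacnb4 came next at 24.5 ± 0.883 in KO and 21.2 ± 2.89 in WT, and Cacna1e and Cacna2d2 were close together at 18.9 ± 1.23 and 17.7 ± 0.422 in KO and at 16.6 ± 1.24 and 17.4 ± 2.99 in WT. Ranges over the 6 libraries overlapped between Cacnb4 and Cacna1e, between Cacna1e and Cacna2d2 and between Cacna1b and Cacna1d. Within libraries, Cacnb4 was above Cacna1e in 6 of 6 and Cacna1b above Cacna1d in 6 of 6, while Cacna1e was above Cacna2d2 in 5 of 6. The ranges of all other neighbours were apart, down to Cacna1i (7.85 ± 0.421 in KO and 7.78 ± 0.627 in WT), Cacna1c (4.77 ± 0.220 in KO and 4.49 ± 0.144 in WT) and Cacna1h (0.827 ± 0.0152 in KO and 0.978 ± 0.290 in WT). With the length of the longest transcript in place of merged exons, Cacna1e moved ahead of Cacnb4 and Cacna1d ahead of Cacna1b. The ranges of Cacna1i (7.18 to 8.44) and Cacna1c (7.09 to 8.07) then overlapped, so their separation depended on the length used.

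As shares of the summed CPM per kilobase of the 8 alpha-1 members, Cacna1g made up 37.8% ± 0.739 in KO and 38% ± 0.569 in WT, and Cacna1a 28.0% ± 0.522 in KO and 27.1% ± 0.615 in WT (SD, n = 3 each). The 3 T-type genes together held 43.1% ± 0.902 in KO and 43.8% ± 1.16 in WT. The 2 L-type genes held 9.92% ± 0.154 in KO and 9.67% ± 0.544 in WT. Of the 8 shares 1 did not overlap between the groups: Cacna1b held 7.47%, 7.44% and 7.54% in KO libraries, against 7.80%, 8.57% and 8.85% in WT libraries. By CPM, the groups did not overlap for 23.7% of all tested genes. With the longest transcript as length, the share of Cacna1c did not overlap either, at 3.53% ± 0.0810 in KO and 3.64% ± 0.0489 in WT. These shares are descriptions with no test.

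Among the 4 beta subunit genes, Cacnb4 and Cacnb3 held most of the summed level per kilobase. Cacnb4 had 39.4%, 38.08% and 38.6% in KO libraries, against 36.9%, 29.5% and 34.9% in WT libraries, and Cacnb3 had 44.6%, 45.7% and 45.8% in KO libraries, against 47.2%, 54.4% and 48.0% in WT libraries. Neither share overlapped, where by CPM the groups did not overlap for 23.7% of all tested genes. As these genes hold most of the sum, a higher share of Cacnb4 lowers that of Cacnb3, so the shares are not separate observations. WT replicate 2 stood farthest from KO in both, and the shares were not tested. Among the alpha-2-delta genes Cacna2d2 held 42.8%, 41.6% and 42.4% in KO libraries, against 36.1%, 37.6% and 44.0% in WT libraries, and overlapped. The order depended on the length used. With the longest transcript, Cacna2d2 held 32.8% ± 0.696 in KO and 29.8% ± 3.79 in WT. Cacna2d3 then led with 43.0% ± 1.73 in KO and 47.3% ± 3.22 in WT.

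**Figure D4:**
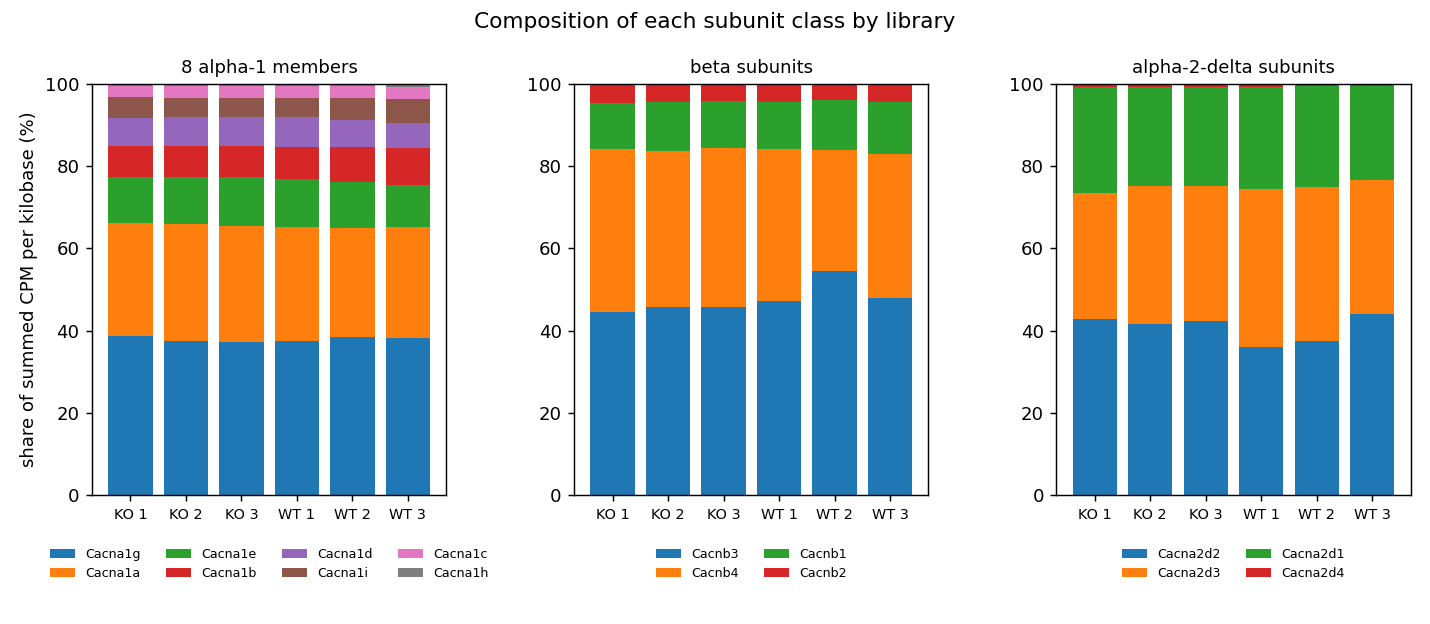
Share of each gene in the summed CPM per kilobase of its subunit class, 1 bar per library, KO bars left of WT bars. The alpha-1 bars are nearly alike, with Cacna1g and Cacna1a at the bottom, and the beta bars differ mainly in WT replicate 2, where Cacnb3 takes 54.4%.

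Of 16 other subunit genes of the family, 14 passed the filter, and 1 fell, 0 rose and 13 did not pass, with a median log2 fold change of -0.04. Cacna1s and Cacng1, known from skeletal muscle, were too low to test, and Cacna1f, known from the retina, was at 1.53 ± 0.592 CPM in KO and 1.16 ± 0.400 CPM in WT (SD, n = 3 each). The gene that fell was Cacng6, a gamma subunit gene with 1, 1 and 2 counts in KO libraries, against 44, 30 and 44 in WT libraries (35.0-fold lower in KO, counting interval 13.3 to 131, adjusted p = 0.000181 in edgeR's test). The alpha-2-delta gene Cacna2d3 was at 111, 120.3 and 120.4 CPM in KO libraries, against 141, 140.2 and 134 CPM in WT libraries. KO libraries all lay below WT libraries, and the adjusted p was 0.0603. It passed in 5 of 13 alternative settings, DESeq2 among them (adjusted p = 0.0129), and at 0.0265 without WT replicate 1 and 0.0483 without WT replicate 3. Cacnb3, the other abundant beta gene, was at 115 ± 4.06 CPM in KO and 125 ± 6.83 CPM in WT (adjusted p = 0.317).

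Genes that work with these channels gave 1 call. Of 19 presynaptic partners, which tether channels at release sites or release vesicles there, 0 passed in edgeR with all libraries and the default filter. Before adjustment 2 were lower with p under 0.05, and 3 had a log2 fold change above 0 (median -0.08). Erc1, an active zone scaffold gene, was at 130.1, 128 and 138 CPM in KO libraries, against 147, 157 and 163 CPM in WT libraries. These did not overlap but missed the threshold (adjusted p = 0.0731), and the adjusted p was 0.0189 in DESeq2 and 0.00940 without WT replicate 1. Syt1, the calcium sensor of release, was at 268 ± 20.6 CPM in KO and 314 ± 44.9 CPM in WT (adjusted p = 0.263, and 0.0160 without WT replicate 1). In edgeR without the filter on low counts, Erc1 (adjusted p = 0.00805) and Syt1 (adjusted p = 0.0184) were called lower. That setting called 820 of 33485 genes lower.

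Of 24 regulators that bind or modify the channels 0 passed, and before adjustment 1 was higher and 2 were lower with p under 0.05 (median -0.03). Gem, a small GTPase gene whose product inhibits high-voltage-activated channels, had 0.603, 1.03 and 0.993 CPM in KO libraries, against 1.70, 1.64 and 1.70 CPM in WT libraries (adjusted p = 0.112), and the calcium-binding protein gene Cabp1 was at 65.9 ± 3.01 CPM in KO and 58.1 ± 2.31 CPM in WT (adjusted p = 0.152, and 0.0477 without WT replicate 1). Of 10 calcium-activated channel genes 8 were tested and 0 passed, with 2 higher at an unadjusted p under 0.05. They were Kcnma1, the BK channel pore, at 168 ± 5.46 CPM in KO and 146 ± 14.98 CPM in WT (adjusted p = 0.204), and its accessory subunit gene Kcnmb1 at 1.01, 1.504 and 1.24 CPM in KO libraries, against 0.497, 0.939 and 0.875 CPM in WT libraries (adjusted p = 0.281). In edgeR without the filter on low counts, Gem was called lower (adjusted p = 0.0411) and Kcnma1 higher (adjusted p = 0.0450).

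Of 24 calcium buffer, store and pump genes 1 fell, 0 rose and 23 did not pass (median -0.01). Calb2, which encodes the buffer calretinin, fell to 336, 324 and 357 CPM in KO libraries, against 409.8, 429 and 498 CPM in WT libraries (adjusted p = 0.0366). Leaving out KO replicate 1, 2 or 3 or WT replicate 2 ended the call (adjusted p = 0.166, 0.207, 0.106 and 0.103). Calb2 is also on the list of 6 unipolar brush cell markers, of which 2 fell (Calb2 and Lmx1a) and 0 rose. That list, with Calb2 in it, summed to 675 to 725 CPM in KO libraries, against 742 to 844 CPM in WT libraries, with no overlap. Calb2 itself is a large part of that sum, so the sum cannot say whether the other markers differed. Of the 6 markers, 3 had a log2 fold change above 0 and 3 below it. The part of these cells in the Calb2 value was not tested. Itpr3, an inositol trisphosphate receptor gene, was at 13.9 ± 0.0721 CPM in KO and 10.8 ± 0.246 CPM in WT (adjusted p = 0.0795, and 0.0321 without WT replicate 1).

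Several of the 10 genes are known from Purkinje cells. Of 16 Purkinje cell markers 3 rose (Pcp2, Car8 and Gng13), 0 fell and 13 did not pass, and 14 had a log2 fold change above 0, with a median of 0.17, and 0 were absent. Their summed level was 6029.9 to 6261 CPM in KO libraries, against 5083 to 5347 CPM in WT libraries, with no overlap. Per 100 CPM of that sum, Cacna1a was at 8.53 ± 0.232 in KO and 8.92 ± 0.199 in WT, and Cacna1g at 10.2 ± 0.547 in KO and 11.1 ± 0.347 in WT (SD, n = 3 each). The sum in the denominator was higher in every KO library, which lowers every gene in KO on this scale, so these values are a description only. Mature granule cell markers, with 0 of 12 higher and 1 lower (Calb2), summed to 6196 to 6517 CPM in KO libraries, against 6315 to 6639 CPM in WT libraries, which overlapped. The 12 oligodendrocyte markers, 3 of them called higher and 0 at zero, summed to 14139 to 14828 CPM in KO libraries, against 12829 to 12967 CPM in WT libraries. All 14 choroid plexus markers had a log2 fold change below 0, and 10 of them were called lower. They summed to 242 to 806 CPM in KO libraries, against 1647 to 2949 CPM in WT libraries. The part of these cell types in the members' values was not tested.

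Of the 10 genes 8 span more than 100 kb, up to 609.2 kb in Cacna1c, while Cacna1g spans 65.8 kb and Cacna1h 59.5 kb. Over the 2378 tested genes of at least 100 kb the median log2 fold change was -0.04, and 39.02% of them had one above 0. GC content of the members' merged exons ran from 41.2% in Cacnb4 to 59.5% in Cacna1h. Removing a GC trend or a length trend from each library left 0 of the 10 called.

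The genes most like a member in pattern were sought among 10678 genes of at least 10 CPM, by the root-mean-square difference of log2 CPM profiles over the 6 libraries, each centred on its own mean. For Cacna1a, the member with the smallest p, they were Dgkh (0.0136), Zdhhc8 (0.0170) and Ppcdc (0.0187), beside a median of 0.132 over all candidates. For Cacna1g, the most abundant, they were Mical3 (0.0196), Cep164 (0.0203) and Ptpa (0.0207), beside a median of 0.115.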

How the data were processed

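RNA from the cerebella of 3 KO and 3 WT male mice was purified by Trizol and DNase I, made into libraries with Illumina TruSeq kits and sequenced as paired reads of 150 bases, per the labels' protocols. The authors deposited whole-number counts of reads per gene, for which the submitters' processing notes name STAR 2.7.5a, edgeR 3.12 and the builds mm10 and GRCm38; the file names carry Ensembl release 102. How STAR was set to count is not stated in the labels. The count column without strand was used, since the strand columns split evenly. Unmapped, multimapping, unassigned and ambiguous reads were left out. The unmapped, multimapping and ambiguous shares differed between the groups without overlap. Totals of 17111611 to 29840046 set the precision, and no molecular identifiers are named.

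Symbols, positions and lengths came from GENCODE M21 (55227 of 55487 identifiers matched). Genes passing edgeR's default filter (minimum count 10, total 15) entered a two-sided quasi-likelihood F test in edgeR 4.0.16 (R 4.3.3) with TMM scaling and p adjusted by Benjamini-Hochberg over 18237 genes. Intervals (95%) come from the log2 fold change, its F statistic and moderated degrees of freedom. The counting interval of Cacng6 is exact binomial and covers counting error only. DESeq2 1.42.0, limma-voom 3.58.1, other scalings and filters, GC and length trends and each library left out were alternatives. Steps were tested on simulated data. There 18% of genes given a 1.25-fold change were called, and 64% of those given a 1.5-fold change. Those genes were drawn from low as well as high levels, and both groups were given the same dispersion. A rate for genes at the members' levels was not measured. Changes as small as the members' folds could still be missed. Replicate numbers follow accession order and pair nothing.

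The members and lists were chosen with earlier results of these data known. Named were the members, other subunits, and from each partner list its calls and its 2 smallest p values. The 3 genes most like Cacna1a and Cacna1g were named by profile. Shares among beta and alpha-2-delta genes, levels per Purkinje marker sum, gene spans and promoter windows were added after the values were seen.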

Additional observations from a re-analysis of the deposited data

How the results depend on the processing

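Of 130 recomputed log2 fold changes of the 10 members over 13 alternatives, 120 kept their direction and side of the threshold and 5 became called, all higher: 4 genes without WT replicate 1 and Cacnb4 without a filter. The other 5 changed sign, with log2 fold changes that ran from -0.40 to 0.031 for Cacna1h, from -0.049 to 0.074 for Cacna1i and from -0.069 to 0.17 for Cacna2d2 when single libraries were left out, and for Cacna2d4, outside the members, from -0.11 to 0.21. The number of members called higher was 0, against 1 without a filter and 0 to 4 with a library left out. Over all genes, 143 were higher and 159 lower, against 803 and 820 without a filter, 276 and 292 in DESeq2, 240 lower with the length trend removed (158 higher), 119 higher and 225 lower with the GC trend removed, and 28 to 959 higher and 53 to 962 lower with a library left out (the extremes without KO replicate 2 and without WT replicate 1). The cause was not tested. The alpha-1 share of Cacna1g was 34.5% in KO and 34.9% in WT with the longest transcript as length, against 37.8% and 38% with merged exons. No paired analysis was possible because the labels give no shared replicate numbers. Cacna1h, at 142 to 263 counts, is the member least precisely measured.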
